A study of Mus musculus with 10 samples.

Results

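The Ly6 family was followed across the cell classes of mouse subcutaneous fat through 7 genes, Ly6a, which encodes stem cell antigen 1 (Sca-1), Ly6c1, Ly6c2, Ly6d, Ly6e, and the related Thy1 and Cd59a. They were taken by symbol, and all 7 were among the 14623 genes of the count table. The cells were the stromal vascular fraction (SVF), which remains once adipocytes are taken out of digested fat, of inguinal white adipose tissue (iWAT). They came from 1 lean Bbs8-/- mouse and 1 Bbs8+/+ littermate, each aged 7 weeks. Bbs8 encodes a subunit of the BBSome, a complex that moves proteins into and out of the primary cilium, and the study asked how its loss changes the cells of fat before obesity sets in. The SVF was not sorted, so no cell was chosen for Sca-1 on its surface. Transcripts were counted with Seq-Well S3, which pairs single cells with barcoded beads in the wells of an array and tags each captured molecule with a unique molecular identifier (UMI).

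Ly6 proteins are small, disulfide-rich domains held on the outer face of the plasma membrane by a glycosylphosphatidylinositol (GPI) anchor. Sca-1 is the surface marker by which adipocyte precursor cells (APCs) are usually sorted from fat, Ly6C marks inflammatory monocytes and many endothelial and T cells, and Ly6D marks cells committed to the B lineage. Ly6E is induced by interferon and is the receptor for syncytin-A. Thy1 is an immunoglobulin-like protein with the same kind of anchor and marks T cells and fibroblasts, and CD59a keeps the complement membrane attack complex from assembling on the cell's own membrane.

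On mm10, 5 of the 7 genes lie within 349.915 kb of chromosome 15, from 74762056 to 75111970. In the GENCODE annotation these are Ly6d (74762056 to 74763620, minus strand), Ly6e (74955051 to 74959905, plus strand), Ly6a (74994877 to 74998031, minus strand), Ly6c1 (75044018 to 75048830, minus strand) and Ly6c2 (75108158 to 75111970, minus strand). Thy1 lies on chromosome 9 (44043384 to 44048579, plus strand) and Cd59a on chromosome 2 (104095801 to 104115354, plus strand). All 7 are protein-coding, and none overlaps another annotated gene.

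Ly6c1 and Ly6c2 are near-identical copies, which matters for every count given for them. Their coding sequences, each 396 bases long, differ at 9 positions and are 97.7% identical. The first 120 coding bases hold 6 of those differences, shown here in capitals in the GENCODE transcripts Ly6c1-201 (exons within 75047420 to 75048511 of chromosome 15, minus strand) and Ly6c2-201 (exons within 75110578 to 75111667, minus strand).
Ly6c1: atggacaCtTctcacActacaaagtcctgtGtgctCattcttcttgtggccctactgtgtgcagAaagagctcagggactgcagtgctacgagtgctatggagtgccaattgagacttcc
Ly6c2: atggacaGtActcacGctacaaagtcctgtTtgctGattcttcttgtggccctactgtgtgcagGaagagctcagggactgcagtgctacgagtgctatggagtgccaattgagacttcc
Of the 784 words of 61 bases in the Ly6c1-201 transcript, the length of the cDNA read, 204 (26.0%) also occur in transcripts of Ly6c2, and 64 of 340 (18.8%) do in its last 400 bases, where reads primed on poly(A) start. No such word was shared between Ly6a and Ly6c1. A read from a shared stretch cannot be placed on 1 of both copies, so the counts of Ly6c1 and Ly6c2 are uncertain to that extent. The stretches before the genes are shown because the genes were highest in different cells. In the 200 bases before the start of each gene in RefSeq (GRCm38.p6, minus strand, chr15:75048838-75049037 for Ly6c1 and chr15:75111972-75112171 for Ly6c2), capitals mark the runs of at least 12 bases found in both, which cover 32 bases (16.0%).
Ly6c1: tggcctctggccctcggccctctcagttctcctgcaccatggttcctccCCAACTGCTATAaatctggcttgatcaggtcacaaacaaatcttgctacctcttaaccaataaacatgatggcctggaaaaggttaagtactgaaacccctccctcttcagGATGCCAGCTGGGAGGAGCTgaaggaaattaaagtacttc
Ly6c2: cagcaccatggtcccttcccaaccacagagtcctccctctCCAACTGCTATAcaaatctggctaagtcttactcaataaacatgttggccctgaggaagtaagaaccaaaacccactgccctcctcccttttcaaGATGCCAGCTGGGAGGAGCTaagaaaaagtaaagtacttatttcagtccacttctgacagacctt
A search of both strands of 300-base RefSeq promoters for the STAT motif TTCNNNGAA found it in 8.30% of 32851 promoters, and for the interferon-stimulated response element in 3.44%. Promoters were matched for Ly6c1, Ly6c2 and Cd59a. The first motif was in none of them, and the second was in that of Cd59a.

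The table held 8985 Bbs8-/- cells with 3144195 UMIs and 1929 Bbs8+/+ cells with 715989 UMIs, with a median of 251 and 278 UMIs per cell. The cells carried 10 set codes, 5 per genotype (KO5_p2, KO5_p3, KO6_p1, KO6_p2 and KO6_p3, and WT3_p1, WT3_p2, WT3_p3, WT4_p2 and WT4_p3), which are called barcode sets and which the labels do not explain. The study's methods describe 2 arrays for a sample and pools of amplification reactions from an array, so that sets of a genotype may come from the same arrays. The labels list 5 samples per genotype, to which the codes could not be matched one by one. Values by set are given in that order. As the series names 1 mouse per genotype, the differences between genotypes have no replicate check, and the spread between sets was not used for a test. Sets held 68989 to 701136 UMIs, and 36 barcodes occurred in more than 1 set. Ttc8, the symbol of Bbs8, had 0 UMIs in Bbs8-/-, which allows up to 0.954 CPM (a gene's UMIs scaled to 1e6 UMIs in all), and 5 UMIs or 6.98 CPM in Bbs8+/+, all from WT4_p2. Cells were clustered without the 7 genes, and clusters were named from marker lists that hold none of them, so the names did not rest on their levels. Stromal cells were 1854 in Bbs8-/- and 787 in Bbs8+/+. They were divided into P1-like cells (the stem-cell-like APCs, 423 and 186), P2-like cells (committed APCs, 537 and 251), P3-like cells (186 and 115) and marker-poor stromal cells (708 and 235). Each of the first 3 names rests on a whole marker list. Dpp4 and Pi16 are among the 10 P1 markers and Col15a1 and Icam1 among the 10 P2 markers. F3 and Mmp3 are among the 9 P3 markers. The other classes were endothelial-like (654 and 185), T cell-like (1174 and 113), B cell-like (1282 and 105), macrophage-like (483 and 132) and monocyte-like cells (364 and 140), with smaller pericyte-like, epithelial-like and mitotic classes.

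To see which cells carry each gene, UMIs of both genotypes were summed by class. The levels are CPM of all UMIs of a class, with exact Poisson 95% intervals that cover counting error only. Ly6a was high in stromal, endothelial-like and pericyte-like cells. It was highest in P1-like cells at 3391 CPM (3187 to 3605), then in P3-like cells at 1783 CPM (1567 to 2021) and endothelial-like cells at 1125 CPM (1011 to 1247). Marker-poor stromal cells had 960.4 CPM, pericyte-like cells 611 CPM (406 to 883, 28 UMIs) and P2-like cells 546 CPM (478 to 621). B cell-, monocyte-, T cell- and macrophage-like cells had 196 to 246 CPM. Between neighbours in this order the intervals were apart at 3 places only, between P1- and P3-like, between P3- and endothelial-like, and between P2- and epithelial-like cells. Stromal cells held 57.8% of all Ly6a UMIs and P1-like cells alone 33.5%.

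**Figure D1:**
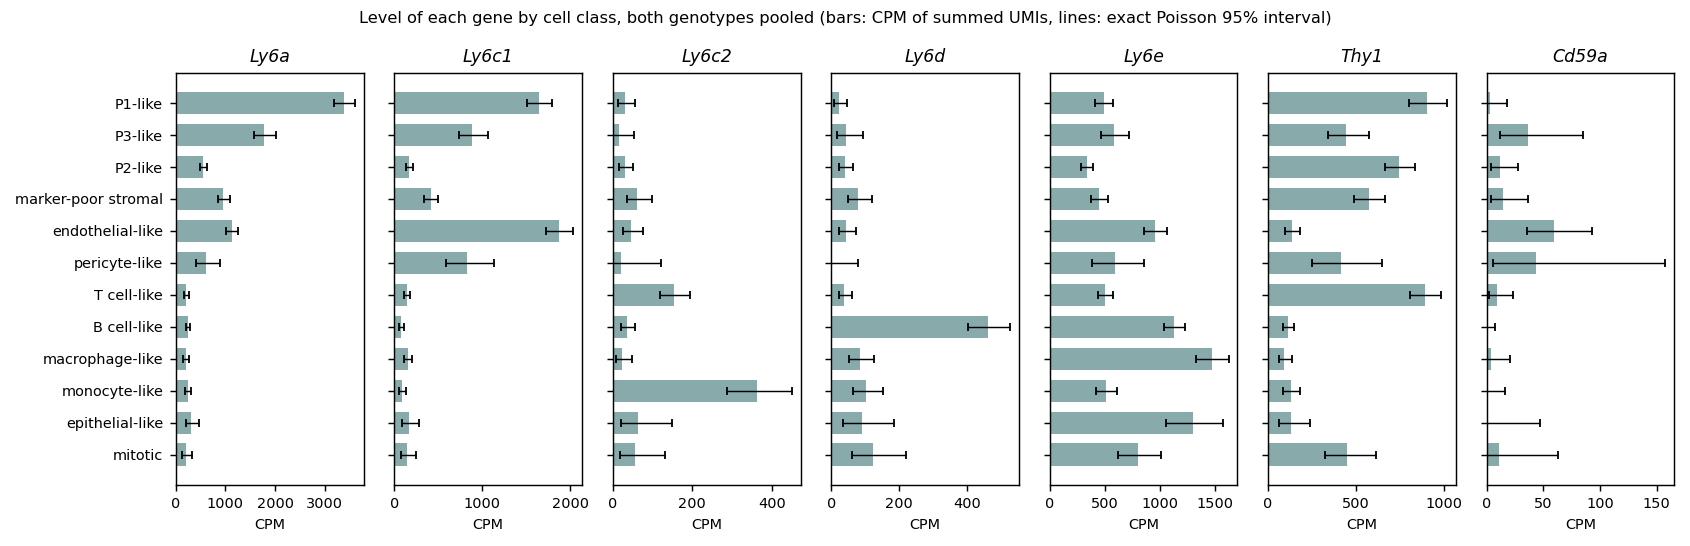
Level of the 7 genes (CPM of the summed UMIs of both genotypes, linear axes that differ between panels) in 12 cell classes, with exact Poisson 95% intervals as lines. Pooled, Ly6a peaked in P1-like cells, Ly6c1 in endothelial- and P1-like cells, Ly6c2 in monocyte-like cells, Ly6d in B cell-like cells, and Thy1 in P1-, T cell- and P2-like cells, but in Bbs8+/+ alone the peaks of Ly6c2 and Ly6d, at 8 and 2 UMIs, were not in these classes.

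Ly6c1 and Ly6c2 were high in different cells. Ly6c1 had 1877 CPM (1730.3 to 2034) in endothelial-like and 1648 CPM (1506 to 1799) in P1-like cells, whose intervals met. By genotype, the levels were 1976 and 1990.0 CPM in Bbs8-/- and 1446 (1157 to 1786) and 767 CPM (592 to 977) in Bbs8+/+, so that the intervals of the classes were apart in Bbs8+/+ alone. Ly6c1 then had 888 CPM in P3-like, 829 CPM in pericyte-like and 412 CPM in marker-poor stromal cells. All 38 UMIs of pericyte-like cells were from the 71 Bbs8-/- cells, at least 3.37-fold above the floor of 3 counts in the 26 Bbs8+/+ cells. P2-like cells, at 166 CPM (129.9 to 209.8), could not be told from macrophage-like cells at 152 CPM or T cell-like cells at 144 CPM. Ly6c2, with 278 UMIs in all, was highest in monocyte-like cells at 362 CPM (288 to 449), followed by T cell-like cells at 153 CPM (119 to 195), and was at 14.6 to 64.2 CPM in the other 10 classes. Monocyte-like cells held 29.5% and T cell-like cells 24.1% of its UMIs. Siglech, a gene of plasmacytoid dendritic cells, was among the leading genes of the monocyte-like class. Without the 63 cells of this class that fell into a Siglech-led cluster at resolution 1.2, a choice made after the values were seen, Ly6c2 was at 80.6 CPM (46.1 to 131) in the class, under the level of T cell-like cells with intervals that overlapped. In Bbs8+/+, T cell-like cells had 168 CPM (5 UMIs) and monocyte-like cells 147 CPM (8 UMIs).

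Ly6d was highest in B cell-like cells when genotypes were pooled. They had 463 CPM (404 to 528) and 46.6% of its 476 UMIs, and the next class, mitotic cells, had 124 CPM. The first place was that of Bbs8-/-, which held 220 of the 222 UMIs, at 492 CPM. The place of mitotic cells was not, as 6 of their 11 UMIs were from Bbs8+/+ cells. Monocyte-like cells had 134 CPM in Bbs8-/-. In Bbs8+/+, with 25 Ly6d UMIs in all, B cell-like cells had 61.8 CPM (2 UMIs), macrophage-like cells 74.5 CPM (4 UMIs) and mitotic cells 269.7 CPM (6 UMIs). Ly6e was the most widespread, from 1471 CPM (1329.9 to 1623) in macrophage-like cells through 1296 CPM in epithelial-like, 1128 CPM in B cell-like and 956 CPM in endothelial-like cells to 335 CPM (282 to 395) in P2-like cells, and no neighbours in its order had intervals that were apart. Thy1 was at 901 CPM (798 to 1015) in P1-like and 889.9 CPM (804 to 983) in T cell-like cells, followed by P2-like cells at 745 CPM, and fell to 92.6 to 134 CPM in endothelial-, epithelial-, monocyte-, B cell- and macrophage-like cells. Cd59a had 54 UMIs in all, of which 19 (35.2%) were in endothelial-like cells at 59.4 CPM (35.7 to 92.7), against 5 in P3-like and 1 in P1-like cells. It had no UMI in B cell-, monocyte- or epithelial-like cells, where the depth allows up to 6.26, 13.2 and 38.5 CPM.

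Shares of cells with at least 1 UMI were compared at equal depth. When every cell was thinned to 200 UMIs, leaving out 2719 shallower Bbs8-/- and 385 Bbs8+/+ cells, a Ly6a UMI was left in 43.3% (39 to 47.6, exact Clopper-Pearson 95% interval) of P1-like, 28.3% of P3-like, 15.3% of endothelial-like and 7.67% of P2-like cells. The unthinned shares were 62.1%, 43.9%, 25.9% and 17.9%. The background in macrophage-like cells, taken as a class that should lack Ly6a, was 4.82% (3.11 to 7.09) thinned and 7.32% unthinned, at a median of 307 UMIs per cell against 350 (P1-like cells) and 419.5 (P2-like cells). The thinned interval of P2-like cells, 5.85 to 9.85%, overlapped that background. Ly6c1 was found in 26.1% of thinned endothelial-like and 24.5% of P1-like cells, with 1.67% in B cell-like cells as background. Thy1 was found in 14.6% of T cell-like, 13.3% of P2-like and 12.1% of P1-like cells (background 1.41% in macrophage-like cells), Ly6d in 8.44% of B cell-like cells (background 0.569% in P1-like cells) and Ly6c2 in 5.28% of monocyte-like cells (background 0.589% in B cell-like cells). The median depth was 290 UMIs in endothelial-like, 255 in T cell-like, 261 in B cell-like and 314 in monocyte-like cells.

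Next, the genes were compared between the APC classes, since Sca-1 is the shared sorting marker of P1, P2 and P3. Both Ly6a and Ly6c1 fell from P1- over P3- to P2-like cells. Ly6a in P1-like cells was at 4122, 4328, 3673, 3763 and 3427 CPM in the Bbs8-/- sets and at 996, 2035, 948, 2515 and 2939 CPM in the Bbs8+/+ sets. In P2-like cells it was at 923, 747, 426, 639 and 514 CPM and 354, 112, 283, 459 and 285 CPM. Every set was higher in P1- than in P2-like cells. The log2 ratio P1-like over P2-like, with 5 CPM added to both levels as in all ratios here, was 2.62 (2.43 to 2.85), 6.16-fold. It was 2.60 within Bbs8-/- and 2.68 within Bbs8+/+. In P3-like cells Ly6a was at 1768, 2280.1, 2189, 1758 and 2059.7 CPM and 1573, 1189.8, 2001, 1049 and 1802 CPM, above P2-like cells in 10 of 10 sets (log2 ratio 1.70 (1.44 to 1.97)) and below P1-like cells in 8 of 10 (P1-like over P3-like 0.93 (0.72 to 1.13); 0.93 (0.70 to 1.18) within Bbs8-/- and 0.64 (0.25 to 1.05) within Bbs8+/+). An interval beside a ratio is its exact 95% interval, which was computed without the added CPM and covers counting error only.

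Ly6c1 differed more than Ly6a between P2-like cells and the other classes, and about as much as Ly6a between P1- and P3-like cells. It was at 1576, 2218, 1936, 2049 and 2176 CPM in P1-like cells of the Bbs8-/- sets and at 272, 904, 1138, 734 and 940.3 CPM in those of the Bbs8+/+ sets. In P2-like cells it was at 177, 302, 151, 168 and 241 CPM and 213, 0, 141, 18.4 and 127 CPM. P1-like cells were higher in 10 of 10 sets, with a log2 ratio of 3.27 (2.95 to 3.69) or 9.64-fold, 3.24 within Bbs8-/- and 3.33 within Bbs8+/+. It was 2.42 at resolution 0.4 and 2.47 with cells of at least 200 genes, and that of Ly6a 2.03 at resolution 0.4. P3-like cells exceeded P2-like cells by 2.38 (1.98 to 2.86) in 10 of 10 sets and were below P1-like cells in 9 of 10 (P1-like over P3-like 0.89 (0.60 to 1.19)). Within Bbs8-/- that last ratio was 0.85 (0.52 to 1.19), and within Bbs8+/+ 0.49 (-0.16 to 1.18), which holds 0. These 2 genes were the members past 2-fold between P1- and P2-like cells, of 6 with at least 20 UMIs, where 6.92% of 5546 genes were 2-fold higher and 11% 2-fold lower in P1-like cells. The median log2 ratio was 0.41 over those 6 and -0.15 over all genes tested.

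Thy1 set P3-like cells apart and not P2-like cells. It was at 873, 775, 1144, 1005 and 972 CPM in P1-like cells of the Bbs8-/- sets and 543, 754, 189.6, 995 and 470.2 CPM in those of the Bbs8+/+ sets, against 442, 662, 749, 219.8 and 515 CPM and 286, 0, 0, 315 and 826 CPM in P3-like cells. P1-like cells were higher in 9 of 10 sets, and the log2 ratio P1-like over P3-like was 1.01 (0.62 to 1.45). It was the 1 member of 4 tested past 2-fold there, beside 9.95% of 3517 genes (7.34% lower), and P1- over P2-like cells gave 0.27 (0.04 to 0.51) with 6 of 10 sets. Thy1 was lower in P3- than in P2-like cells (-0.74 (-1.17 to -0.35), lower in 9 of 10 sets), so that it went against Ly6a and Ly6c1, the 2 members of 5 tested that were 2-fold higher in P3-like cells (background 5.91% of 4617 genes higher, 13.3% lower). Ly6e differed less, by 0.55 (0.21 to 0.90) between P1- and P2-like and -0.24 (-0.64 to 0.17) between P1- and P3-like cells. Ly6c2 and Ly6d, with at most 17 UMIs in any of the 3 classes, gave intervals that held 0 (P1-like over P2-like -0.03 (-1.44 to 1.30) and -0.67 (-2.30 to 0.56)). With TMM or DESeq2 scaling the ratios of P1- and P3-like over P2-like cells rose by 0.15 to 0.16. Among the ratios of the 7 genes stated here, this turned the sign only of Ly6c2 (P1-like over P2-like, -0.03).

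**Figure D2:**
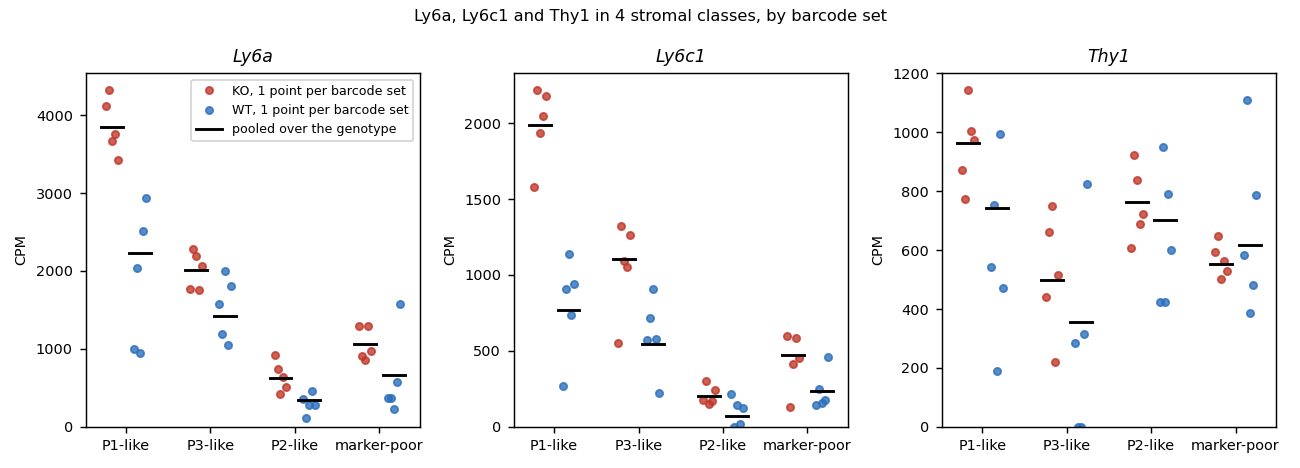
CPM of Ly6a, Ly6c1 and Thy1 in P1-like, P3-like, P2-like and marker-poor stromal cells, with 1 point per barcode set (red Bbs8-/-, blue Bbs8+/+) and a line at the pooled level of each genotype. The pooled levels of Ly6a and Ly6c1 stepped down from P1- over P3- to P2-like cells in both genotypes, though in Bbs8+/+ the interval of the step of Ly6c1 from P1- to P3-like cells held 0, and the Bbs8-/- points of P1-like cells lay above all Bbs8+/+ points for both genes.

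The study set Bbs8-/- against Bbs8+/+ SVF, and the genes were therefore compared between genotypes, first in all stromal cells. For Ly6a, Ly6c1, Ly6d and Ly6e every Bbs8-/- set lay above every Bbs8+/+ set, and for Thy1 the sets overlapped. Ly6a was at 2023, 2029.6, 1517, 1846 and 1498 CPM in the Bbs8-/- sets and at 698, 881, 683, 1145 and 1387 CPM in the Bbs8+/+ sets. The sets did not overlap, and they differed by code within each genotype, with 2026 CPM in KO5 against 1616 in KO6 and 765 in WT3 against 1233 in WT4. The pooled levels of Ly6a, 1749 and 1059.9 CPM, gave the log2 ratio 0.72 (0.55 to 0.89) or 1.65-fold. A Ly6a UMI was left in 23.9% of thinned Bbs8-/- and 15.7% of thinned Bbs8+/+ stromal cells (35.5% and 23.8% unthinned).

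Ly6c1 was past 2-fold. It was at 729, 978, 756, 929 and 864 CPM in the Bbs8-/- sets and 262, 419.7, 456, 327 and 389 CPM in the Bbs8+/+ sets, and the lowest Bbs8-/- set was well above the highest Bbs8+/+ set. By code it was at 846 and 849 CPM against 370.3 and 349.6 CPM. The log2 ratio was 1.24 (0.97 to 1.54), 2.35-fold. Ly6e, the interferon-induced member, was at 486, 465, 508, 462 and 519 CPM against 218, 419.7, 325, 245 and 350.0 CPM, also without overlap, and its log2 ratio was 0.71 (0.40 to 1.05).

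Ly6d, the B lineage marker, was low, at 71.5, 57.1, 49.7, 57 and 57.6 CPM in the Bbs8-/- sets (47 UMIs) and 21.8, 0, 0, 14.9 and 25.9 CPM in the Bbs8+/+ sets (5 UMIs). The sets did not overlap and the log2 ratio was 1.66 (0.64 to 3.65). Thy1 was at 672, 815, 822, 689 and 691 CPM and 479.9, 756, 293, 729 and 648 CPM, with overlapping sets and a log2 ratio of 0.20 (-0.03 to 0.43), whose interval held 0. Ly6c2 had 33 and 8 UMIs (0.67 (-0.37 to 2.10)), and its ratio passed 2-fold without WT4_p2. Cd59a, with 11 and 4 UMIs, was too rare to be counted. Of the 6 members with at least 20 UMIs, 2 (Ly6c1 and Ly6d) were 2-fold higher in Bbs8-/- and none 2-fold lower, where 13.4% of 7244 genes were higher and 2.4% lower. Without WT4_p2, 3 of the 6 were 2-fold higher. All Bbs8-/- sets lay above all Bbs8+/+ sets for 4 of the 6, against 4.97% of all genes. The shares over all genes, in this and the other comparisons, were not matched for the level of a gene. The median log2 ratio was 0.71 over the 6 and 0.14 over all genes. TMM and DESeq2 factors moved all stromal ratios by -0.15 and -0.16, which left Ly6a at 0.57, Ly6c1 at 1.08 and Thy1 at 0.05.

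**Figure D3:**
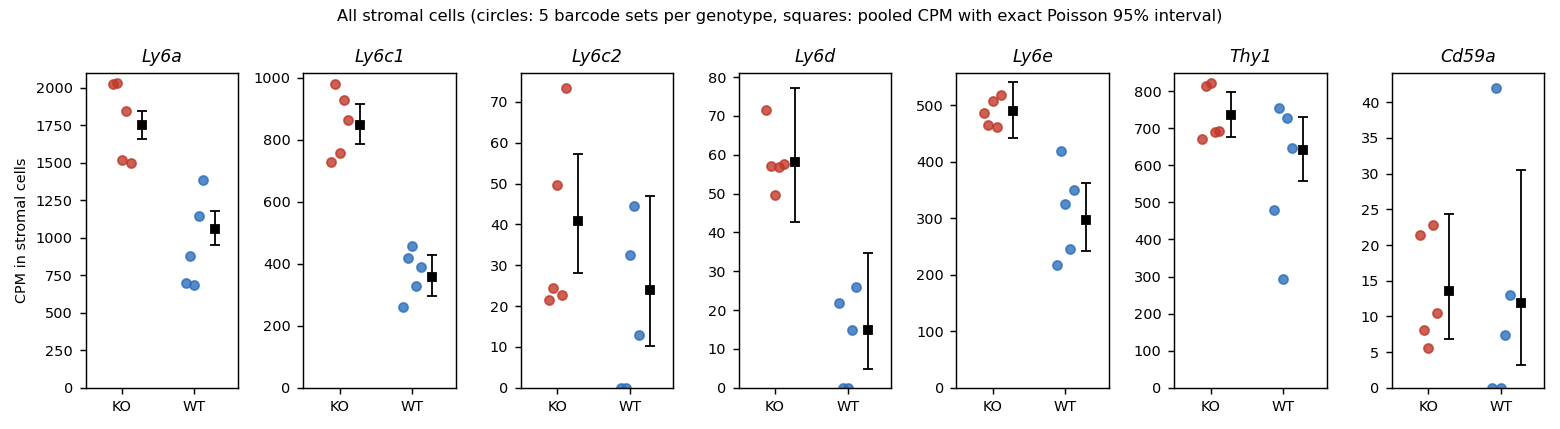
CPM of the 7 genes in all stromal cells, with a circle for each of 5 barcode sets per genotype (red KO, Bbs8-/-; blue WT, Bbs8+/+) and a square for the pooled level with its exact Poisson 95% interval. The circles of Ly6a, Ly6c1, Ly6d and Ly6e did not overlap between genotypes, and those of Ly6c2, Thy1 and Cd59a did.

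The markers of the stromal classes moved with the genotype in the same cells. The 10 P2 markers summed to 8313 CPM (7653 to 9098 over sets) in Bbs8-/- and 12457 CPM (11758 to 15231) in Bbs8+/+ stromal cells, the 9 P3 markers to 1849 and 3090.4 CPM and the 8 pan-stromal markers to 68457 and 83578 CPM, each with sets apart, and the 10 P1 markers to 5049 and 4207 CPM. All were detected in both genotypes. The P2 list does not mark P2-like cells alone, as it summed to 21008 and 27748 CPM in endothelial-like cells. The part of these markers in the differences of Ly6a and Ly6c1 over all stromal cells was not tested, and the values within each stromal class follow further on. RNA of other cells was also higher in Bbs8-/- stromal cells. The 8 endothelial markers summed to 351 CPM (265 to 419 over sets) in Bbs8-/- and 113 CPM (25.9 to 186) in Bbs8+/+ stromal cells, with all 8 detected in both. The 8 B cell markers summed to 1165 CPM (913 to 1324) and 295 CPM (97.6 to 409), with 8 and 7 detected, and the 10 T cell markers to 722 CPM (514 to 854) and 191 CPM (0 to 260.2), with 10 and 9 detected. The 8 macrophage markers summed to 609.7 CPM (432 to 891) and 211 CPM (65.1 to 297), all detected in both. In Bbs8-/- endothelial-like cells there were 19.95 UMIs of Ly6c1 per 100 UMIs of endothelial markers, and in Bbs8-/- stromal cells 242. At the ratio of endothelial-like cells, the endothelial markers in Bbs8-/- stromal cells would go with 69.9 CPM of Ly6c1, where 848 CPM were counted. The same count for Ly6a was 41.6 of 1749 CPM, and for Thy1 against T cell markers 70.8 of 736 CPM. For Ly6e it was 91.1 of 490.0 CPM against B cell markers and 48.7 CPM against macrophage markers. In Bbs8+/+ stromal cells the counts for Ly6e were 27.9 and 11.7 of 298 CPM. There they were 18.0 of 357 CPM for Ly6c1, 11.3 of 1060 CPM for Ly6a and 30.1 of 640 CPM for Thy1. Ly6d was different. It had 3.37 UMIs per 100 UMIs of B cell markers in Bbs8-/- B cell-like cells and 4.98 in Bbs8-/- stromal cells, 2.99 in T cell-like, 3.18 in endothelial-like, 4.43 in macrophage-like and 7.05 in P2-like cells, so that 39.3 of its 58.0 CPM in Bbs8-/- stromal cells were at the ratio of B cell-like cells. In Bbs8+/+, with few UMIs, the ratio was 0.61 in B cell-like cells (2 UMIs) and 5.05 in stromal cells (5 UMIs), so that 1.80 of 14.9 CPM were at the ratio of B cell-like cells. The part of such RNA in the differences between genotypes was not tested.

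Within the stromal classes, Ly6a and Ly6c1 were higher in Bbs8-/- in each, with intervals above 0. Ly6e was so in each but the P2-like cells, and Ly6d had fewer than 20 UMIs in P1-, P2- and P3-like cells and was not counted there. In P1-like cells the sets of both Ly6a and Ly6c1 were apart (values by set above). The pooled levels of Ly6a were 3842 and 2229 CPM (log2 ratio 0.78 (0.56 to 1.02)), and those of Ly6c1 1990.0 and 767 CPM (log2 ratio 1.37 (1.00 to 1.78)). Among thinned P1-like cells, 48.6% in Bbs8-/- and 31.5% in Bbs8+/+ had a Ly6a UMI (68.6% and 47.3% unthinned). Ly6e (0.74 (0.15 to 1.40)) and Thy1 (0.37 (-0.04 to 0.80)) had overlapping sets. Of 4 members tested in P1-like cells, 1 was 2-fold higher, where 11% of 2367 genes were (6.55% were 2-fold lower), and 2 had all Bbs8-/- sets above all Bbs8+/+ sets, where 2.24% of genes did. The P1 markers themselves summed to 12463 CPM in Bbs8-/- and 11053 CPM in Bbs8+/+ P1-like cells, and the P2 markers to 2599.8 and 4023 CPM. The P3 markers summed to 798 and 1545 CPM, the B cell markers to 908 CPM (630.3 to 1496 over sets, 8 of 8 detected) and 212 CPM (0 to 452, 6 of 8), and the T cell markers to 486 CPM (242 to 726, 10 of 10) and 177 CPM (0 to 353, 7 of 10), and their part was not tested.

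In P2-like cells the P2 markers summed to 13453 CPM (12120 to 15035 over sets) in Bbs8-/- and 18894 CPM (17359 to 21788) in Bbs8+/+, with all 10 detected, the B cell markers to 753 CPM (550 to 894, 8 of 8 detected) and 216 CPM (0 to 354, 4 of 8), and the T cell markers to 421 CPM (295 to 757, 10 of 10) and 119.9 CPM (0 to 147, 5 of 10), and their part was not tested. Ly6a (0.86 (0.39 to 1.39)) and Ly6c1 (1.45 (0.50 to 2.71)) were higher in Bbs8-/- with overlapping sets, though with cells of at least 200 genes the ratio of Ly6a was 0.15, and Ly6e (0.40 (-0.16 to 1.01)) and Thy1 (0.12 (-0.24 to 0.49)) had intervals that held 0. Of 4 tested, 1 (Ly6c1) was 2-fold higher and none 2-fold lower, beside 10.7% and 4.93% of 3690 genes, and none had its sets apart, beside 2.55%. Without WT4_p2 the ratio of Ly6c1 was 0.83, short of 2-fold. In P3-like cells, Ly6c1 (1.02 (0.41 to 1.68)) and Ly6e (1.22 (0.44 to 2.10)) were past 2-fold and Ly6a (0.49 (0.10 to 0.90)) was not, with overlapping sets for all 3, where 8.78% of 945 genes were 2-fold higher, 5.93% lower and 0.741% had all Bbs8-/- sets above. The B cell markers summed there to 904 CPM (634 to 1170 over sets, 7 of 8 detected) in Bbs8-/- and 357 CPM (0 to 601, 7 of 8) in Bbs8+/+. The T cell markers summed to 547 CPM (368 to 773, 8 of 10) and 113 CPM (0 to 315, 5 of 10). The P2 markers summed to 7454 and 9421 CPM and the P3 markers to 7264 and 7601 CPM, and their part was not tested. In marker-poor stromal cells, Ly6c1 (1.01 (0.27 to 1.86)) and Ly6d (20 and 2 UMIs, 1.65 (-0.22 to 4.96)) were 2-fold higher of 5 tested, beside 17.3% of 2443 genes (9.78% lower), and Ly6d had its sets apart, beside 4.05%. With TMM or DESeq2 scaling Ly6c1 was at 0.94 or 0.93, short of 2-fold. Ly6e was 0.79 (0.12 to 1.55). In this class the B cell markers summed to 2147 CPM (2069 to 2401 over sets, 8 of 8 detected) in Bbs8-/- and 481 CPM (0 to 922, 6 of 8) in Bbs8+/+, the T cell markers to 1483 CPM (1292 to 1748, 10 of 10) and 385 CPM (0 to 527, 8 of 10), and the pan-stromal markers to 40776 and 74307 CPM, and their part in these differences was not tested. Ly6a (0.69 (0.24 to 1.17)) overlapped there because of WT4_p3, at 1575 CPM, and its ratio was 1.34 without that set. Thy1 was -0.16 (-0.67 to 0.37).

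In endothelial-like cells, where Ly6c1 marks capillaries and other vessels, the ratios of Ly6a, Ly6c1 and Ly6e were smaller than in all stromal cells. The intervals of Ly6a and Ly6e overlapped those of stromal cells, and the ratio of Thy1 was larger. Ly6c1 was at 2034, 1699, 1921, 2214 and 1911 CPM in the Bbs8-/- sets and 1566, 1421, 1615, 1481 and 1082 CPM in the Bbs8+/+ sets. The sets were apart, and the log2 ratio was 0.45 (0.12 to 0.80), or 1.36-fold. With classes called cell by cell from marker UMIs the ratio was 0.03, and with cells of at least 200 genes it was 0.82. In the same cells the 8 pericyte markers summed to 1239 CPM (1115 to 1502 over sets, all detected) in Bbs8-/- and 2506 CPM (1732 to 2768, 7 detected) in Bbs8+/+, and the B cell markers to 1688 CPM (1182 to 2173, 8 of 8 detected) and 336 CPM (0 to 869.8, 5 of 8), and their part was not tested. Ly6a was at 1174 and 908 CPM (0.37 (-0.05 to 0.82)) and Ly6e at 982 and 841 CPM (0.22 (-0.22 to 0.69)), both with intervals that held 0. Thy1 had 39 and 4 UMIs (1.10 (-0.32 to 3.10)), and T cell markers summed to 898 and 319.5 CPM in the same cells. It was the 1 member of 4 tested 2-fold higher, beside 17.6% of 3109 genes (7.17% lower), and Ly6c1 the 1 whose Bbs8-/- sets all lay above the Bbs8+/+ sets, beside 3.86%. Cd59a had 16 and 3 UMIs (0.26 (-1.52 to 2.70)), and Ly6c2 and Ly6d had 15 and 14 UMIs in Bbs8-/- and none in Bbs8+/+, where up to 50.5 CPM would go unseen.

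In lymphoid cells the members held few Bbs8+/+ UMIs. In T cell-like cells, Thy1 was at 881 CPM in Bbs8-/- (721 to 993 over sets) and 1011 CPM in Bbs8+/+ (30 UMIs, 0 to 4808 over sets), a log2 ratio of -0.20 (-0.74 to 0.39). Ly6a (0.35 (-0.92 to 2.02)), Ly6c1 (-0.52 (-1.74 to 0.97)), Ly6c2 (-0.14 (-1.45 to 1.53)) and Ly6e (-0.61 (-1.26 to 0.09)) also had intervals that held 0. None of 5 members tested was past 2-fold, where 26.8% of 3837 genes were 2-fold higher, 9.49% lower and 17.3% had all Bbs8-/- sets above. In B cell-like cells, Ly6d was at 587, 377, 601, 362 and 572 CPM in the Bbs8-/- sets (220 UMIs) and at 0, 0, 0, 134 and 0 CPM in the Bbs8+/+ sets (2 UMIs). Its log2 ratio was 2.89 (1.12 to 6.05), the sets were apart, and it was the 1 member of 5 tested past 2-fold. In this class 27.7% of 4092 genes were 2-fold higher, 11.2% were lower and 15.9% had all Bbs8-/- sets above all Bbs8+/+ sets, so that such a difference was common. The value rests on 105 Bbs8+/+ cells, and the 2 UMIs came from WT4_p2. Without that set Bbs8+/+ had no UMI and the ratio, 6.64, was set by the 5 CPM added, and with classes called cell by cell it was 0.61. The B cell markers summed to 14588 CPM (14070.2 to 15245 over sets) in Bbs8-/- and 10143 CPM (6002 to 14729 over sets) in Bbs8+/+ B cell-like cells, and macrophage markers to 181 and 989.6 CPM. Whether other cells in the Bbs8+/+ class have a part in the difference was not tested. Ly6e (0.25 (-0.27 to 0.82)) and Ly6a (0.19 (-0.89 to 1.55)) had intervals that held 0, and that of Ly6e was 1.71 without WT4_p2.

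In macrophage-like cells, where Ly6e was highest, it was at 1413, 1435, 1555, 1569 and 1513 CPM in the Bbs8-/- sets and 1263, 965, 1364, 987 and 2249 CPM in the Bbs8+/+ sets, which overlapped (0.19 (-0.19 to 0.58)). Ly6c1 (37 and 4 UMIs, 1.15 (-0.28 to 3.15)) and Thy1 (24 and 1 UMIs, 2.30 (-0.04 to 7.94)) were past 2-fold at background levels, with intervals that held 0, beside 15.3% of 2421 genes higher and 5.53% lower, and no member had its sets apart, beside 3.18%. Without WT4_p2 the ratio of Ly6c1 was 0.41 and that of Thy1 1.65, and without WT3_p3 that of Ly6c1 was 1.99 and without WT3_p2 that of Thy1 4.54. The T cell markers summed to 865 CPM (675 to 1192 over sets, 10 of 10 detected) in Bbs8-/- and 242 CPM (0 to 561, 4 of 10) in Bbs8+/+ macrophage-like cells, and their part in the Thy1 values was not tested. In monocyte-like cells, Ly6c2 was at 269.7, 958, 415, 323 and 192 CPM in the Bbs8-/- sets (74 UMIs) and 0, 111, 162, 224 and 108 CPM in the Bbs8+/+ sets (8 UMIs). The sets overlapped, KO5_p3 stood highest, and the log2 ratio was 1.51 (0.49 to 2.81). The sign depended on how the class was drawn. The ratio was -0.48 when the 7 genes were kept among the clustering features, -0.66 without integration and 0.01 at resolution 1.2, and 2.14 without WT4_p2. Ly6c1 and Ly6d had 20 and 23 UMIs in Bbs8-/- and none in Bbs8+/+ monocyte-like cells, at least 2.10-fold and 2.42-fold higher when 3 counts over the genotype are taken as the floor. The B cell markers summed there to 1370 CPM (977 to 1557 over sets, 8 of 8 detected) in Bbs8-/- and 534 CPM (133 to 940, 6 of 8) in Bbs8+/+. The endothelial markers summed to 325 CPM (89.9 to 440) and 111 CPM (0 to 333), and their part was not tested. Without the cells of the Siglech-led cluster, Ly6d was at 61.9 CPM (9 UMIs) in Bbs8-/- against a floor of 56.7 CPM, and Ly6c1 at 124 CPM (18 UMIs). Ly6e (0.66 (-0.05 to 1.46)), Ly6a (0.49 (-0.50 to 1.66)) and Thy1 (0.93 (-0.56 to 2.96)) had intervals that held 0. In all, 3 of 6 members tested were 2-fold higher, beside 14% of 2009 genes (6.82% lower), and 2 had sets apart, beside 3.29%. Their median log2 ratio was 1.22, or 1.00 with Ly6c1 and Ly6d at their bounds, against 0.05 over all genes. Without the Siglech-led cells Ly6c1, Ly6c2 and Ly6d fell under 20 UMIs, Ly6c2 was 0.12 (-1.60 to 2.21), and none of the 3 members still counted was past 2-fold.

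**Figure D4:**
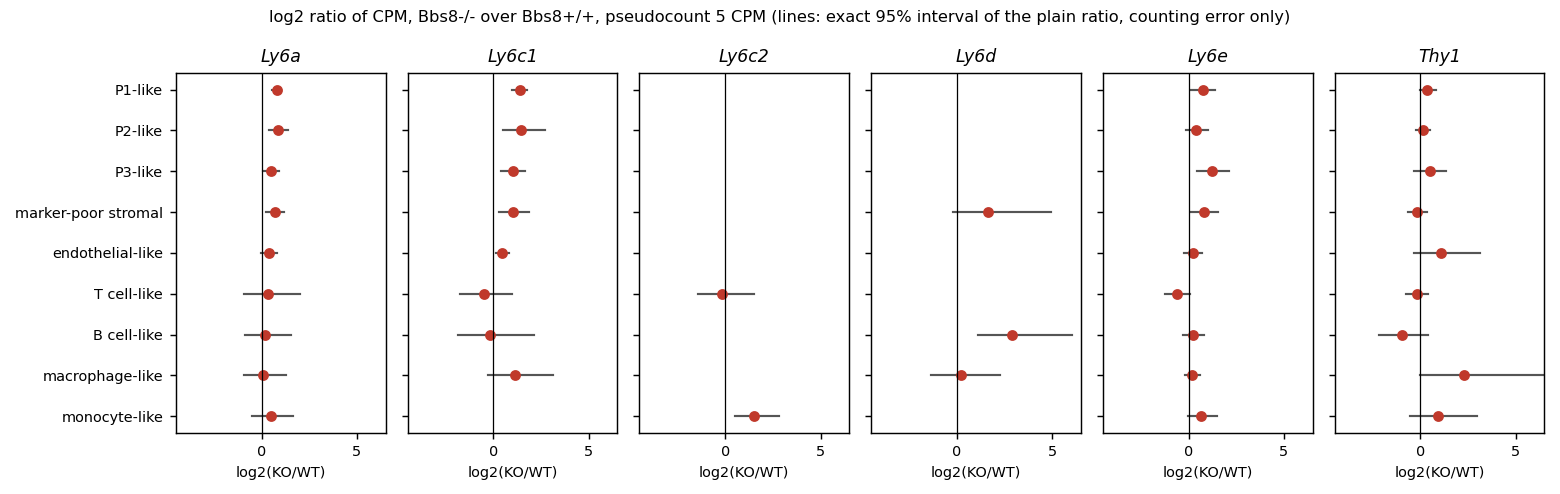
Log2 ratio of CPM, Bbs8-/- over Bbs8+/+ (5 CPM added to both levels), for 6 genes in 9 cell classes, drawn where a gene had at least 20 UMIs and both genotypes at least 1. Lines are exact 95% intervals of the plain ratio and cover counting error only (that of Thy1 in macrophage-like cells runs beyond the axis). Ly6a and Ly6c1 lay to the right of 0 in all 4 stromal classes, and most values of lymphoid and myeloid cells had wide intervals across 0.

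Of 9 other genes of the Ly6/uPAR family in the table, Gpihbp1, which carries lipoprotein lipase to the capillary lumen, had 870 UMIs, more than Ly6c2, Ly6d or Cd59a, and the others had far fewer, Lynx1, a modulator of nicotinic receptors, 95, Plaur, the urokinase receptor, 72 and Ly6k 29, with under 20 for the rest. In stromal cells Gpihbp1 was at 79.0 CPM in Bbs8-/- and 8.93 CPM in Bbs8+/+ (64 and 3 UMIs, log2 ratio 2.59, 1.53 to 5.46), with overlapping sets. There were 18.5 UMIs of Gpihbp1 per 100 UMIs of endothelial markers in Bbs8-/- endothelial-like, 22.5 in stromal, 22.6 in macrophage-like, 24.5 in T cell-like and 10.1 in B cell-like cells, and in Bbs8+/+ 13.5 in endothelial-like and 7.89 in stromal cells. Lynx1 gave -0.11 (-1.08 to 0.90).

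The enzymes that build the GPI anchor, on which all 7 proteins depend, were measured at low levels. Of 11 with at least 20 UMIs in stromal cells, 2 were 2-fold higher in Bbs8-/- (Pigs, 1.31, and Pgap2, 1.04, both with intervals that held 0) and none lower, with a median log2 ratio of 0.15, where 13.4% of all genes tested in stromal cells were 2-fold higher and 2.4% lower. Of 17 other genes of GPI-anchored surface proteins, 4 were 2-fold higher and none lower, with a median of -0.04. These were Cd24a (2.12), Cd52 (1.01), Folr2 (1.65) and Cntn1 (22 and 0 UMIs), among which Cd24a and Cd52 are known from lymphocytes and Folr2 from macrophages. Of 26 interferon-induced genes, the group to which Ly6e and Ly6a belong by their induction, 3 were 2-fold higher (Psmb9, 1.43, Rtp4, 1.31, and Zbp1, 1.11) and 1 lower (Xaf1, -2.51), with a median of 0.13, near the 0.14 of all genes, and a share higher near their 13.4%. With the TMM or DESeq2 shift of stromal ratios given above, Pgap2, Cd52 and Zbp1 fell short of 2-fold, and Dpm3, a subunit of the enzyme that makes the anchor's mannose donor, before the shift at -0.91 (-1.75 to -0.21), passed 2-fold lower.

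The interferon-induced list was also counted between stromal classes. Of 26 tested, 15 were 2-fold higher and 1 lower in P1- than in P2-like cells, with a median log2 ratio of 1.06 against -0.15 over all genes, and the background above of 6.92% higher. Bst2 (2.46, 1.85 to 3.39), Ifi27l2a (2.15, 1.82 to 2.54), Ifit1 (1.93, 1.11 to 3.25) and Irf7 (1.92, 1.23 to 2.94) led the list, and Ifi27 was lower (-1.34, -1.82 to -0.94), names chosen after their values were seen. Between P1- and P3-like cells 8 of 25 were higher and 1 lower (median 0.67, background 9.95% higher and 7.34% lower, median 0.01), and between P3- and P2-like cells 1 of 18 was higher and none lower (median 0.32), the latter near the background of 5.91%. Between P1- and P2-like cells, none of 8 GPI anchor enzymes tested was past 2-fold. Of 15 other GPI-anchored genes 5 were higher and 3 lower there (median 0.03), beside 6.92% and 11% of all genes. Between P1- and P3-like cells, 1 of 3 enzymes was higher and none lower. Of 8 other genes 2 were higher and 1 lower, beside 9.95% and 7.34%. Between P3- and P2-like cells, none of 4 enzymes was past 2-fold. Of 12 other genes 3 were higher and 1 lower, beside 5.91% and 13.3%.

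Across the 11 named classes of at least 100 cells, the genes whose level was most like a member's were sought among 3659 genes with at least 200 UMIs, as Pearson's r of log2(CPM + 20), given as a description over classes that share libraries. Most like Ly6a were Ace (0.965), Eln (0.948) and Lamb2 (0.945), and most like Ly6c1 were Fbln5 (0.928), Tshz2 (0.914) and Thbd (0.908). For Ly6d they were Wdfy4 (0.929), Cd72 (0.928) and Serp1 (0.927), for Ly6c2 Sub1 (0.925), Ramp1 (0.870) and Vdac2 (0.848), and for Ly6e Mtss1 (0.894), Zmynd8 (0.842) and Ist1 (0.817). Thy1 was most like Clip1 (0.847), Tmem167 (0.833) and Appl1 (0.817), and Cd59a most like Jam2 (0.921), Cldn5 (0.862) and Tmem30a (0.860). Among the members, Ly6a and Ly6c1 were most alike (0.906) and Ly6e and Thy1 least (-0.796).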

How the data were processed

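The authors deposited 1 table of whole-number UMI counts by gene and cell barcode, whose 10 barcode sets were mapped to genotypes. Per the labels and the methods of the study, bcl2fastq 2.20 demultiplexed the reads, STAR aligned them to mm10 (GENCODE genes), and Drop-seq tools counted them. Depth was evened with downsampleBatches of scuttle, and cells were filtered by genes and mitochondrial share. It is not given in the sources used here if the counts predate that step. Cells had 101 to 994 genes and at most 20.0% mitochondrial UMIs, and no cell was removed. The 7 genes, the gene lists and the comparisons were chosen with earlier results of these data known.

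Seurat 5.3.0 in R 4.3.3 was used to integrate the barcode sets (anchors), with 1997 of 2000 variable features (3 of the 7 genes removed), 30 dimensions and Louvain resolution 0.8, which the study did not state. Of 16 clusters, 15 held at least 60 cells. They were named where at least 3 markers with at least 3 UMIs and the mean log2 fold of a list over the other clusters (20 CPM added) passed 0.5, unless none of the list was among the 10 leading genes and fewer than 5 markers passed or the cells were shallow, and 3 stayed unnamed, with 31.6% of Bbs8-/- and 15.1% of Bbs8+/+ cells. Names are thus rebuilt and may differ from those of the study. Scrublet marked 25 cells (0.229%) and was judged not to have worked, so doublets were kept. A total of 4 barcodes occurred in more than 3 sets, in 37 cells, and were kept.

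Levels are CPM of summed counts with exact Poisson intervals, shares have exact Clopper-Pearson intervals and ratios exact conditional intervals, all at 95%, computed with scipy 1.17.1 and tested on simulated data. They cover counting error only. With 1 mouse per genotype no count model or test was run, and edgeR 4.0.16 and DESeq2 1.42.0 gave scaling factors only. A gene was counted in a comparison with at least 20 UMIs and past a fold of 2. For genes without a UMI the floor was 3 counts. Alternatives were other scalings, pseudocounts, cluster settings, cell filters, per-cell class calls and leaving out each barcode set. Named were all 7 genes, other family genes with at least 20 UMIs, up to 5 genes per other list with the largest fold of at least 2 in stromal cells, and the 3 most alike genes per member. Genes of the interferon-induced list named between P1- and P2-like cells fall outside this rule and were chosen after their values were seen. Gene positions are from GENCODE vM21. Promoters are from RefSeq and were matched for 3 of the 7 genes.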

Additional observations from a re-analysis of the deposited data

Results flagged for a closer look

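In 94 groups of 5 barcode sets (a gene in a class of 1 genotype), the highest or lowest set was compared with the others by Dixon's ratio. In all, 11 sets passed the cutoff of 0.71. For normally distributed values that cutoff is passed in about 1 in 20 groups, or 4.7. That rate does not hold for counts of a few UMIs with many sets at 0, so the 11 cannot be read against it. A group with UMIs in 1 set only has a ratio of 1.0 whatever its count. Each of the 11 is a set far from the 4 others of its genotype.

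In P1-like cells, Ly6e was at 90.5 CPM in WT3_p1 (1 UMI), below 341 to 411 CPM in the others. In marker-poor stromal cells, Ly6a was at 1575 CPM in WT4_p3 (24 UMIs), above 233 to 571. In endothelial-like cells, Ly6a was at 766 CPM in KO5_p2 (29 UMIs), below 1184 to 1281. In T cell-like cells, Ly6a was at 1202 CPM in WT3_p3 (1 UMI), above 0 to 249.97, and Ly6c1 at 726 CPM in WT3_p2 (3 UMIs), above 0 to 187. In B cell-like cells, Ly6d was at 134 CPM in WT4_p2 (2 UMIs) and at 0 in the others, and Ly6e at 1669 CPM in WT4_p2 (25 UMIs), above 266 to 480.2. In macrophage-like cells, Ly6c1 was at 682 CPM in WT3_p3 (2 UMIs), above 0 to 140.4, and Thy1 at 205 CPM in KO6_p2 (9 UMIs), above 68.8 to 100.3, and at 107 CPM in WT3_p2 (1 UMI), with 0 in the others. In monocyte-like cells, Ly6e was at 755 CPM in WT4_p3 (7 UMIs), above 162 to 333. Of the 11 values, 6 rest on 1 to 3 UMIs.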

How the results depend on the processing

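No paired analysis was possible because each genotype was 1 mouse and no result comes from a test. The codes p1 to p3 occur in both genotypes but the labels do not explain them, and no fit with a replicate block was made. In all, 1468 values were recomputed for 116 results, of which 74 moved and 2 reversed. Of the 36 that moved and are not ratios, 30 are shares of cells without thinning and 6 are counts over the other gene lists with another UMI minimum. Of 1411 log2 ratios recomputed under alternatives for 63 results, 1371 stayed within the counting interval of the reported value (intervals that hold 0 allow a change of sign), 38 moved outside it and 2 of values past their interval reversed. The 2 reversed values are Ly6c2 in monocyte-like cells, Bbs8-/- over Bbs8+/+, at -0.48 with the 7 genes kept among the features and -0.66 without integration. In all stromal cells, with cells of at least 200 genes, Ly6a was 0.47 and Thy1 -0.039. P1-like over P2-like, Ly6a was 2.39 without integration, 2.03 at resolution 0.4, 2.33 with at least 200 genes and 2.31 with classes called cell by cell, and Ly6c1 was 2.87, 2.42, 2.47 and 2.87 under the same settings and 2.91 without the highest doublet scores. Leaving out each barcode set in turn gave 0.64 to 0.86 for Ly6a, 1.16 to 1.28 for Ly6c1 and 0.12 to 0.34 for Thy1 in stromal cells, and 2.54 to 2.71 for Ly6a and 3.20 to 3.38 for Ly6c1 between P1- and P2-like cells. The number of members 2-fold higher in Bbs8-/- stromal cells, an alternative count added after the data were examined, was 2 under every setting but 2, which gave 3 (without WT4_p2, and without the highest doublet scores). Other values that moved were Ly6c2 in stromal cells and Ly6e in B cell-like cells without WT4_p2 (1.61 and 1.71) and Ly6a in P2-like cells with at least 200 genes (0.15). The thinned shares were 21.4% for Ly6a and 10.5% for Ly6c1 in stromal cells and 32.0% and 19.0% without thinning. Depth limits Ly6c2, Ly6d and Cd59a in most classes and every gene in the Bbs8+/+ lymphoid cells.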

Other observations

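The Ly6c2 UMIs of the monocyte-like class came mostly from a small group of cells, found after the values had been seen. At resolution 1.2, a cluster of 64 cells (61 Bbs8-/- and 3 Bbs8+/+) was led by Siglech, at 4303 CPM (3573 to 5138), and 63 of its cells were in the monocyte-like class at resolution 0.8. It held 66 Ly6c2 UMIs, 2328 CPM (1800 to 2962), beside the 82 of the whole monocyte-like class. Ly6d was at 494 CPM (14 UMIs), Ly6e at 1305 CPM, Ly6a at 529 CPM (15 UMIs), and Thy1 and Ly6c1 at 106 and 70.5 CPM (3 and 2 UMIs). Cd59a had no UMI, which allows up to 106 CPM. At that resolution the log2 ratio of Ly6c2 in the cells then named monocyte-like was 0.01.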
